A study of Homo sapiens with 3 samples.

Results

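The genes ZNF703 and ZNF503 encode a pair of closely related zinc-finger corepressors, and their surroundings were examined for binding of ARID1B in HEK293FRT cells, a human embryonic kidney line. The members are all ARID1B peaks in the interval chr8:36700000-37900000, which runs from KCNU1 past ZNF703, and all peaks within 300 kb of the ZNF503 gene body on chromosome 10, on the human genome build hg38. Both stretches were chosen from the positions and scores of these same peaks, so the number, strength and crowding of the members are a description and carry no test. There were 41 member peaks among the 3612 peaks of both lists, of which 19 of 1792 were in replicate 1 and 22 of 1820 in replicate 2. Peaks of both replicates that overlapped by at least 1 bp were joined into 18 regions, 12 in the KCNU1 to ZNF703 interval and 6 at ZNF503, out of 1312 in all, with 1 further region of the series left out because it lay on no annotated chromosome. The study held 2 replicates of ARID1B chromatin immunoprecipitation followed by sequencing (ChIP-seq) and 1 input sample, all from cells with no treatment and no altered genotype given. The input was not analysed here. Each peak carried a whole-number score given by the authors, with a median of 74 in replicate 1 and 75 in replicate 2, and its percentile is the share of peaks in the same list that score no higher. The lists hold no read counts, so depth is unknown, and nothing states whether the replicates came from separate cultures.

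ARID1B binds DNA as part of BAF, a SWI/SNF-type complex that slides and evicts nucleosomes at promoters and distal regulatory elements, and it takes the place that ARID1A holds in other copies of the complex. ZNF703 and ZNF503 belong to the NET family of zinc-finger proteins, named in part after the fly genes no ocelli and elbow and the zebrafish nlz genes. Its members are known to repress transcription together with Groucho/TLE proteins and histone deacetylases. ZNF703 is best known as a gene amplified in luminal breast cancers, and ZNF503 for its roles in the developing striatum and limb of mouse and chick. The gene next to ZNF703 on its upstream side is KCNU1, which encodes the pH-sensitive potassium channel SLO3 of sperm, and the same side of ZNF503 holds KCNMA1, which encodes the related calcium-activated channel SLO1.

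A single member region stood at a protein-coding gene's end, taken as 1000 bp on either side, and it lay at the start of ZNF503. It spanned chr10:75402564-75402805, 648 bp upstream of the annotated start of ZNF503, which is read towards lower coordinates. Its scores were 44 in replicate 1 and 41 in replicate 2, which placed it at percentiles 21.3 and 18.2, near the foot of both lists. The same region lay inside ZNF503-AS2, a long non-coding RNA gene read in the opposite direction, and ended 92 bp before a listed start site of it at position 75402897. The promoter windows of RefSeq (GRCh38.p14, 250 bases before to 50 after a start) are shown for that start of ZNF503-AS2 (chr10:75402647-75402946, plus strand), where the peaks reached, and for ZNF503 itself (chr10:75401867-75402166, minus strand), where they did not. Capitals mark the 108 bases under the peaks of both replicates in the first sequence and the match to the GC-box letters GGGCGG in the second.
ZNF503-AS2: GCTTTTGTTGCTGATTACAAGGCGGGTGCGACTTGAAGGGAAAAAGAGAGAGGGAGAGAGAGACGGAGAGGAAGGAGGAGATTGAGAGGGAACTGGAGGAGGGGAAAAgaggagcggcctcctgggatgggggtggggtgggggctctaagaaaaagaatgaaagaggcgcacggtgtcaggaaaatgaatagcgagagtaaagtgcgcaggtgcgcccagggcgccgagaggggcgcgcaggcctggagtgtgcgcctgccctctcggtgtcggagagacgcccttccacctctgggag
ZNF503: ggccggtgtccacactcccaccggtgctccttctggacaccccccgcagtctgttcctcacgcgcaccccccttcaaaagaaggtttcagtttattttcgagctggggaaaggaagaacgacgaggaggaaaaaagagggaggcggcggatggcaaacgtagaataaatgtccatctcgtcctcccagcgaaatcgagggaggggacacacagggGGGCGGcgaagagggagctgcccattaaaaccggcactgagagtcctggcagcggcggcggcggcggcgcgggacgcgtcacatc
Of the 108 bases under both peaks 85 (78.7%) were purines on this strand, in a stretch with 3 CpG dinucleotides. A purine or pyrimidine share at least as large was found in the first 108 bases of 0.504% of 35116 RefSeq promoter windows. The GC-box letters, searched like the others on both strands, were not in the ZNF503-AS2 window and were once in the ZNF503 window, and 45.0% of all windows hold them. The AP-1 letters TGANTCA were in neither window, against 7.71% of all windows. The E-box letters CANNTG were once in the ZNF503-AS2 window and not in the ZNF503 window, against 68.7% of all windows. The CCAAT letters were in neither, against 34.6% of all windows, so no 2 matches overlapped in the windows shown. RefSeq lists a second ZNF503 start at position 75401764, farther from the region, whose window holds 1 GC-box, 0 AP-1, 2 E-box and 2 CCAAT matches. The purine share was looked at after the sequence was seen. The ZNF503 window ended 398 bp short of the region.

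In the KCNU1 to ZNF703 interval the strongest region, chr8:37479255-37479896, scored 707 in replicate 1 and 763 in replicate 2, ranks 7 and 11 of their lists. It lay inside LINC01605, a long non-coding RNA gene, 216 kb upstream of ZNF703, whose direction towards higher coordinates is from general knowledge because the gene table gives no strand. The region chr8:37302391-37303220 came next with 642 and 667, ranks 8 and 14. It lay in no annotated gene, 393 kb from ZNF703 and 366 kb from KCNU1, so it was slightly nearer to the channel gene. Both regions were strong in both replicates, and 6 weaker regions lay between them.

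The highest of those 6, chr8:37360412-37360932, scored 409 and 447 and formed a doublet with chr8:37359503-37360035, which scored 205 and 195. Only 377 bp lay between them, the smallest gap in either locus, and both lay within 1000 bp of an end of LOC124901930, a long non-coding RNA gene. At chr8:37329483-37330105, inside LOC100507403, the scores were 237 and 304, and at chr8:37392982-37393493, between genes, 185 and 135. The doublet and its neighbours stood 302 to 366 kb upstream of ZNF703.

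Within LINC01605 the strong region was accompanied by 3 others. At chr8:37452318-37452912 the scores were 78 and 107, and at chr8:37472321-37472979 they were 105 and 46. The second of these showed the widest disagreement of any member, with percentile 69.3 in replicate 1 and 24.4 in replicate 2. At chr8:37597316-37597595, close to the end of LINC01605 that faces ZNF703, the scores were 74 and 155, so here replicate 2 was the higher, at percentile 81.8 against 50.8.

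Nearer to ZNF703 the regions were strong again. At chr8:37637785-37638418, 57.4 kb upstream, the scores were 300 and 376, and at chr8:37675199-37675685, 20.1 kb upstream, they were 251 and 372. The region 20.1 kb away lay in no protein-coding or long non-coding RNA gene and was the closest shared region to ZNF703. The farthest from ZNF703, at chr8:37073404-37073748, 622 kb upstream, scored 28 and 46. Among the shared regions of the interval this was the lowest in replicate 1 and level with the lowest in replicate 2. Its peaks overlapped by 75 bp, the smallest overlap of any member.

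**Figure D1:**
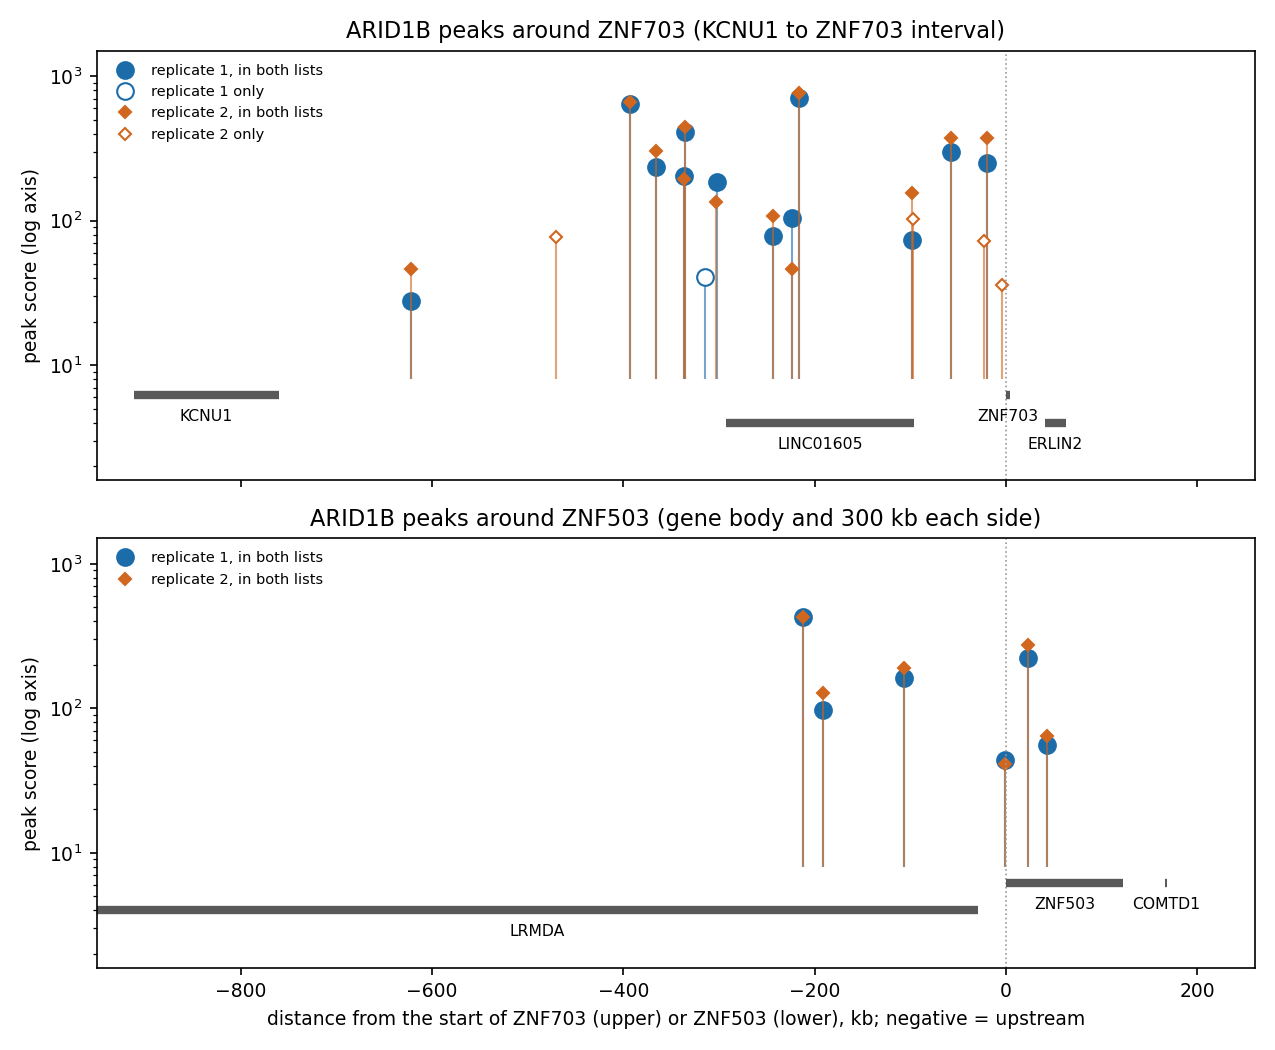
Scores (log axis) of member peaks against their distance in kb from the start of ZNF703 (upper panel) and of ZNF503 (lower panel, drawn so that upstream is also to the left), with circles for replicate 1, diamonds for replicate 2, open symbols for peaks of 1 list and grey bars for gene bodies. All 12 shared regions of the upper panel lie upstream of ZNF703, with the highest at 216 and 393 kb, and the highest of the 6 in the lower panel lies 212 kb upstream of ZNF503; peaks outside the member windows are not drawn.

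The members were placed unevenly along the interval. No peak of either list lay inside KCNU1, inside ZNF703 or in the 200 kb from the end of ZNF703 to the end of the interval, so all 12 regions and all 5 peaks of 1 list lay between both genes. The first peak stood 137 kb beyond KCNU1 and the last 4.03 kb before ZNF703. Gaps between neighbouring shared regions ranged from 0.377 to 229 kb with a median of 32.0 kb, against a median of 821 kb over all chromosomes. When regions at most 100 kb apart were joined, 8 regions formed a cluster of 178 kb from the strong region outside LINC01605 to the strong one inside it, and 3 formed a second cluster of 78.4 kb that ended 20.1 kb before ZNF703. Outside the interval, the nearest peak on the KCNU1 side lay 7946 kb from the first member and that on the other side 875 kb from the last.

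The ZNF503 locus held fewer regions in a shorter window, 6 in 722 kb (8.31 per Mb) against 12 in 1200 kb (10.0 per Mb). Its top score was lower, and every peak there was in both lists. The strongest, chr10:75613642-75614504, scored 429 in replicate 1 and 430 in replicate 2, ranks 26 and 31. It lay inside the annotated body of LRMDA, a leucine-rich repeat gene known from melanocyte differentiation, 212 kb upstream of ZNF503. The LRMDA body also held chr10:75593034-75593556, with scores of 98 and 127, and chr10:75508539-75509204, with 163 and 191. All 3 lay before the first LRMDA start in the RefSeq promoter table, the closest by 33.0 kb, a table that is not complete.

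The other 2 regions lay inside the 122 kb annotated span of ZNF503, downstream of its start. At chr10:75379167-75379552, 22.4 kb into the gene, the scores were 222 and 273, percentiles 91.9 and 94.3. At chr10:75359058-75359317, 42.6 kb into the gene and inside the antisense gene ZNF503-AS1, they were 56 and 64. The region 0.648 kb from the start was thus weaker than its neighbours 22.4 kb inside the gene and 107 kb upstream. No peak lay in the 300 kb on the far side of ZNF503, towards COMTD1 and VDAC2. The outermost member lay 212 kb from the gene body, on the upstream side, where the first peak beyond the limit lay 348 kb outside it. On the COMTD1 side the first peak beyond the limit, of replicate 1 alone with a score of 41, lay 11.1 kb outside it and 390 kb from the nearest member.

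Placing relative to genes was mostly distal at both loci. In the KCNU1 to ZNF703 interval 0 of 12 regions (exact Clopper-Pearson 95% interval 0 to 26.5%) and at ZNF503 1 of 6 (16.7%, 0.421 to 64.1) stood within 1000 bp of a protein-coding gene's end, against 12.5% of all 1312 regions. Over 10000 bp from every such end lay 12 of 12 and 5 of 6, together 17 of 18 (94.4%, 72.7 to 99.9), against 75.3% of all regions. These intervals cover counting error only, and neighbouring regions are not independent. When ends of long non-coding RNA genes and other annotated genes were counted as well, 3 of 12 regions of the ZNF703 interval and 1 of 6 near ZNF503 lay within 1000 bp of an end, together 22.2% against 20.2% of all regions, so on that count the members stood close to the background.

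The annotated gene bodies around the regions differed between the paralogues. In the ZNF703 interval, 0 of 12 regions lay in a protein-coding gene, 8 overlapped long non-coding RNA genes and 4 lay in neither. Among the 8, chr8:37359503-37360035 overlapped only the edge of LOC124901930, and its replicate 1 peak lay 41 bp outside that gene. Near ZNF503, 5 of 6 lay in a protein-coding gene, 3 of them in LRMDA and 2 in ZNF503, and the sixth lay in ZNF503-AS2. Over all regions 51.9% lay in a protein-coding gene, 15.3% in long non-coding RNA genes alone and 32.8% in neither. The 4 of 12 in neither (33.3%) thus stood close to the background. ZNF703 spans 4.24 kb and ZNF503 122 kb, so the room for a region inside the gene differs between them. The 3 LRMDA regions lay before the first LRMDA start in the RefSeq promoter table, which is not complete. The 2 in ZNF503 lay 22.4 and 42.6 kb past its start, so these classes depend on the annotated spans.

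Windows of 100 and 300 kb gave equal counts of shared regions around both corepressor genes, and a window of 1000 kb did not. Within 300 kb of the gene body lay 6 shared regions at ZNF703 and 6 at ZNF503, or 9.93 and 8.31 per Mb. Within 100 kb the numbers were 3 and 3, or 14.7 and 9.31 per Mb, and within 1000 kb they were 13 and 8. All peaks within 100 kb came to 3 and 3 in replicate 1 and to 6 and 3 in replicate 2. Median percentiles within 300 kb were 81.6 in replicate 1 and 89.7 in replicate 2 at ZNF703, and 75.3 and 81.8 at ZNF503. Within 100 kb the medians lay farther apart, 93.9 and 97.5 at ZNF703 against 35.0 and 41.9 at ZNF503. The upstream side alone held 6 regions within 300 kb of the ZNF703 start and 4 within 300 kb of the ZNF503 start, and 11 and 4 within 400 kb. These counts are set side by side with no test, since there are 2 loci and both were chosen for their peaks.

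**Figure D2:**
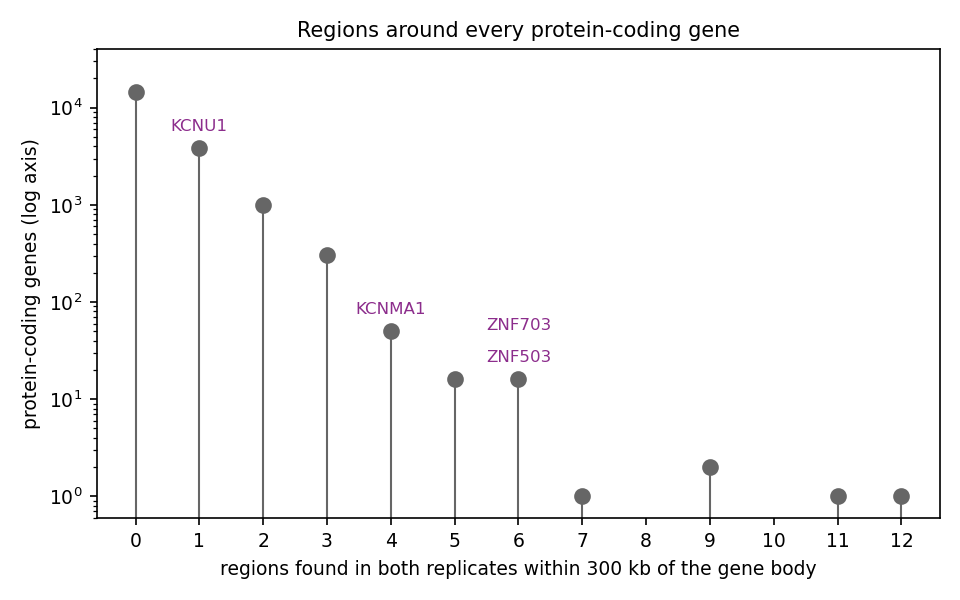
Number of protein-coding genes (log axis) by the number of regions found in both replicates within 300 kb of the gene body. ZNF703 and ZNF503 each had 6, a number that 21 of 19866 genes reached or passed, while KCNMA1 had 4 and KCNU1 1.

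Few genes had as many regions around them. Of 19866 protein-coding genes, 14588 had no shared region within 300 kb and 21 (0.106%) had 6 or more, among them ZNF703 and ZNF503. Both loci were chosen for their peaks, so their place among these genes is a description and no test. The window grows with the gene body and measured 604 kb at ZNF703 and 722 kb at ZNF503. The number is partly shared by neighbours, since ERLIN2, next to ZNF703, and LRMDA, next to ZNF503, also had 6. By the nearest end of a protein-coding gene, 10 regions were assigned to ZNF703, 2 to KCNU1, 3 to LRMDA and 1 to ZNF503, and the remaining pair, both inside ZNF503, to LOC124902461, a gene model with an end inside the span of ZNF503. The nearest gene thus gave ZNF703 almost all of its regions and ZNF503 few.

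The channel genes also differed in the peaks inside them, and they differ in length. KCNU1 spans 152 kb and held 0 peaks in both lists. KCNMA1 spans 768 kb and held 4 in both, all of them in shared regions, or 5.21 per Mb, while the 2 inside ZNF503 come to 16.4 per Mb of its shorter body. The highest KCNMA1 region, chr10:77287685-77288153, scored 247 in replicate 1 and 461 in replicate 2, percentiles 93.7 and 98.7. It lay deep in the gene, 350 kb from the nearer end, with a weak neighbour at chr10:77288997-77289292 (51 and 67) and a strong one at chr10:77305680-77306196 (205 and 217). The whole stretch from KCNU1 through ZNF703 held 12 shared regions in 916 kb, or 13.1 per Mb, and that from ZNF503 through KCNMA1 held 10 in 2358 kb, or 4.24 per Mb. KCNMA1 lies outside the window that chose the members.

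**Figure D3:**
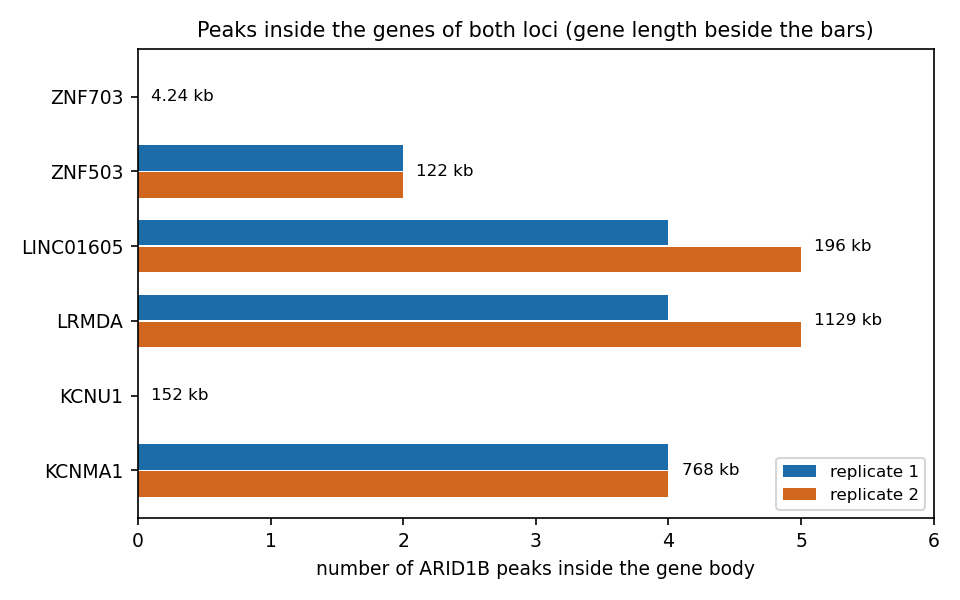
Number of ARID1B peaks of replicate 1 and replicate 2 inside the bodies of the corepressor genes, the genes beside them and the channel genes, with the length of each gene in kb beside its bars. ZNF703 and KCNU1 have 0 in both lists, ZNF503 has 2 and KCNMA1 4.

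The replicates shared most member peaks. In replicate 1, 12 of 13 peaks of the KCNU1 to ZNF703 interval and 6 of 6 at ZNF503 overlapped a peak of replicate 2, together 94.7% (exact 95% interval 74.0 to 99.9) against 73.5% of the whole list. In replicate 2 the counts were 12 of 16 and 6 of 6, together 81.8% (59.7 to 94.8) against 72.4% of the list. Both intervals cover counting error only, neighbouring peaks are not independent, and the loci were chosen for their peaks, so neither interval serves as a test. The shared regions of the whole series had median percentiles of 61.6 in replicate 1 and 62.4 in replicate 2, and the part that score plays in the members' sharing was not tested.

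All 5 peaks found in 1 list lay in the KCNU1 to ZNF703 interval, at percentiles from 12.5 to 68.7. Replicate 1 alone had chr8:37380958-37381194 with a score of 41. Replicate 2 alone had chr8:37598593-37598877 with 103, 998 bp from a peak of replicate 1, and chr8:37224921-37225142 with 77. It also had chr8:37672180-37672416 with 72, beside the shared region 20.1 kb upstream of ZNF703, and chr8:37691550-37691755 with 36. The last is the closest peak of either list to ZNF703, 4.03 kb upstream, and it stood at percentile 12.5 of replicate 2.

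Scores of the members were high but spread over the whole range. At or above percentile 90 in both lists stood 6 of 12 regions of the ZNF703 interval and 2 of 6 near ZNF503, against 9.91% of all regions. These shares describe scores that helped to choose the loci. Percentiles of the shared regions ran from 5.58 to 99.7 in replicate 1 and from 24.4 to 99.5 in replicate 2 in the ZNF703 interval, and from 21.3 to 98.6 and from 18.2 to 98.4 near ZNF503. The percentile in replicate 2 minus that in replicate 1 had a median of 1.85 points over the 18 members, with a range from -44.9 to 31.0, and was within 5 points for 11 of them. Over all regions 27.0% were within 5 points, but percentiles near the top have little room to differ. Member regions were 242 to 863 bp wide, with medians of 564 bp in the ZNF703 interval and 454.5 bp near ZNF503, against 369 bp over all regions.

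**Figure D4:**
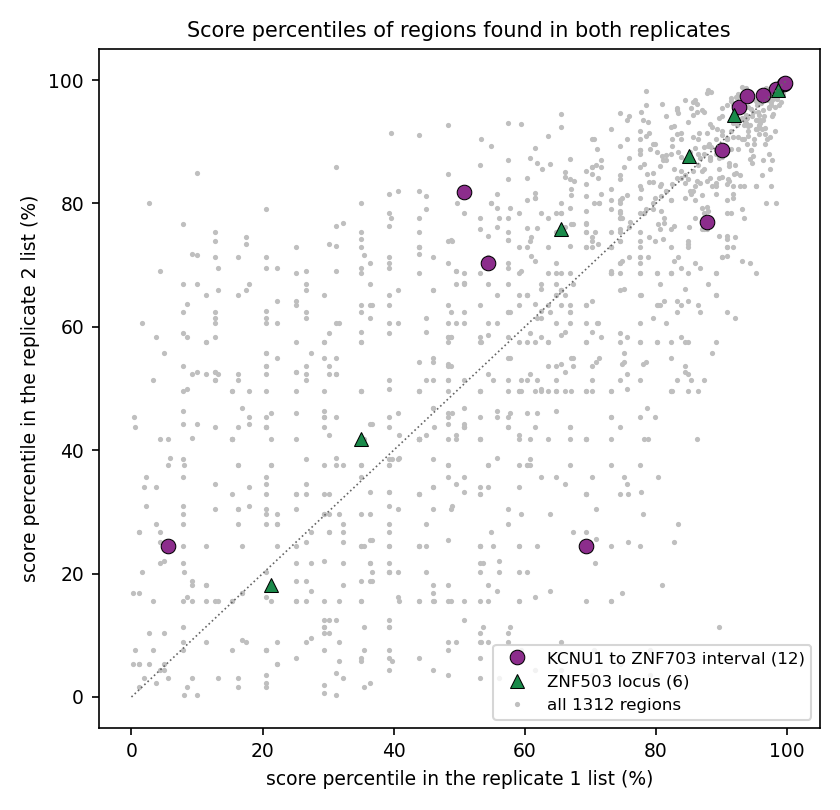
Score percentile in replicate 1 (horizontal axis) and replicate 2 (vertical axis) of the 12 regions of the KCNU1 to ZNF703 interval (circles), the 6 regions of the ZNF503 locus (triangles) and all 1312 regions (small dots), with a dotted line at equality. Of the members 8 stand at or above 90 in both lists, and the farthest from the line has 69.3 and 24.4.

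Neighbouring genes were looked up for peaks at their ends. Of 17 genes that lie beyond ZNF703, from ERLIN2, which encodes an endoplasmic reticulum lipid-raft protein, to the receptor tyrosine kinase gene FGFR1, 0 had a peak of either list within 1000 bp of an end. Of 10 genes around ZNF503, 1 had one, KAT6B, which encodes a histone acetyltransferase. Another region, chr10:74826060-74826681 inside the KAT6B body, scored 102 and 131 and covered all 300 bases of a listed promoter window of that gene. It lay more than 1000 bp from both annotated ends, so it is not the region counted at an end, whose position is not given here. For comparison, 1.05% of all protein-coding genes had a shared region at an end, and counts of 0 and 1 are too small to be read against that share.

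The partners and machinery of corepression were looked up in the same way. Of 11 such genes 1 had a shared region within 1000 bp of an end, against 1.05% of all protein-coding genes. A count of 1 is too small to be read against that share. The gene was DCAF7, a scaffold protein gene, with chr17:63550169-63550451 at scores of 67 and 72, which covered 225 bases of its promoter window. SIN3A, the gene of a histone deacetylase scaffold, had a region inside its body that covered 246 bases of a promoter window of an inner start (chr15:75451695-75452049, scores 138 and 194). Among the Groucho family genes, TLE3 had the closest region, 3.63 kb away with scores of 41 and 98, and for TLE1, TLE2, TLE4 and TLE5 the closest was 213 kb or farther. PHB2, the prohibitin 2 gene, had a region 21.1 kb away with scores of 177 and 286. HDAC1, HDAC2 and NCOR1 had none within 300 kb. The genes of this list given with values were picked after the values were seen.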

How the data were processed

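ARID1B ChIP-seq of HEK293FRT cells was read from 1 peak list for each of 2 replicates. The submitters' processing notes name bcl2fastq 2.20.0.422, Bowtie2 2.3.4.1, MACS2 2.1.2 and the build hg38. The sources used here do not give the calling threshold, how duplicates were handled or whether the input served as control. The score that the authors deposited with each peak has no stated scale, so it served only to describe and rank peaks within its own list. The lists carry no counts, so depth is unknown and no error of a single score can be given.

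Starts were converted to count from 1. Genes came from a RefSeq table of GRCh38.p14 (58961 genes, 19866 of them protein-coding, without the mitochondrial, unlocalized and alternate sequences), the same assembly as hg38. Promoter sequences and strands came from RefSeq windows of 27305 genes, which covered no gene of the KCNU1 to ZNF703 interval. The members, windows and gene lists were chosen with earlier results of these data known, and no test was made. Distances run between facing edges. Genes named were the members, those that member regions touch, and 3 lists of neighbours and corepressor partners. LOC124902461 and the list genes given with scores were named after their values were seen. A gene of the partner list is not reported here. Python 3.11 with pandas 2.3.3 and SciPy 1.17.1 was used, and the joining of peaks was tested on simulated data. Alternatives were another overlap rule, a score minimum, single lists, other windows and other joining distances.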

Additional observations from a re-analysis of the deposited data

How the results depend on the processing

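Counts of shared regions moved with the window more than with the way of matching peaks. The KCNU1 to ZNF703 interval kept 10 regions with 50% reciprocal overlap, 12 with centres at most 200 bp apart and 10 among peaks at or above the median score of their list, against 12 as reported, and 13 within 1000 kb of ZNF703. Within 300 kb of ZNF703, the rule used for ZNF503, it fell to 6. The ZNF503 locus had 6 regions under both other overlap rules and 4 among peaks at or above the median, but 3 within 100 kb, 8 within 1000 kb and 10 from ZNF503 through KCNMA1. Leaving out 1 replicate and counting all peaks of the other gave 13 to 16 in the interval, 6 at ZNF503 and 1 at a gene end. The single region at a gene end, that of ZNF503, was lost among peaks at or above the median score (0 regions) and with a gene end window of 500 bp (0 regions), and 1 remained with 5000 bp. The share of member peaks in both lists ranged from 84.2 to 94.7% in replicate 1 and from 72.7 to 87.5% in replicate 2. Joining regions at 100 kb gave 4 clusters of at least 2 regions over both loci, joining at 50 kb gave 5 and at 200 kb gave 2. No paired analysis was possible because the series has a single ChIP group and no test was made. Without counts, the lists cannot tell a weak site from an absent one.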

Other observations

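The highest region of each locus lay at a similar distance upstream of its corepressor gene, 216 kb for ZNF703 and 212 kb for ZNF503, and each lay inside a longer gene, LINC01605 and LRMDA. This was noticed after the positions were seen, it rests on 1 region per locus, and the ZNF703 interval has a second region of nearly the same score 393 kb upstream. Of the 1261 regions off chromosome 8, 132 (10.5%) touched a RefSeq promoter window, and of the 6 at ZNF503 only the one at ZNF503-AS2 did.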
